A study of Mus musculus with 9 samples.

Results

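Bone marrow T-cells of leukemia-bearing mice that were given recombinant interleukin 12 (rIL-12) were compared with those of leukemia-bearing mice given vehicle, to describe by gene function what differed with the cytokine. The comparison held the 6 mice with leukemia, 3 in each arm, out of the 9 mice of the series. All 785 probes of the panel were tested, and none was left out for its value. The comparison and the functional gene lists were chosen with earlier results of these data known. The other 3 mice, which had no leukemia, shared the statistical model and are given as reference values.

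All mice were wild-type female C57BL/6 animals of 6 to 8 weeks at injection, and they were not irradiated, so each host kept its own immune system. Both leukemia arms received by tail vein 1 luciferase-marked line of BCR-ABL1+ Arf-/- B-cell acute lymphoblastic leukemia (B-ALL), which is a model of B-ALL with the BCR-ABL1 fusion. The treated arm was given rIL-12p70 into the peritoneum at 1 µg per dose for 5 daily doses, the first on day 3, without blinding. The control arm is described as vehicle treated in the study's methods and as having had no treatment in the sample labels. On day 7, a pan-T-cell kit was used to isolate T-cells from bone marrow, so CD4+ and CD8+ T-cells were measured together and each value belongs to the whole isolate of 1 mouse.

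IL-12 is a cytokine that dendritic cells and macrophages release to T-cells and natural killer (NK) cells. Its receptor signals through the kinases JAK2 and TYK2 to the transcription factor STAT4, and together with T-bet (Tbx21) STAT4 switches on interferon gamma (Ifng). Interferon gamma then signals through JAK1 and JAK2, which induces guanylate binding proteins, the chemokine CXCL9 and, through the transactivator CIITA, the genes of major histocompatibility complex (MHC) class II.

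The assay was the nCounter Mouse Immune Exhaustion panel, in which color-coded probes are hybridized to RNA and counted without amplification. The total count per mouse was 257613 to 548385 with vehicle and 500764 to 711748 with rIL-12. TMM scaling in edgeR set the mice to a common scale, and a normalized count below is a count at that scale, comparable between mice for 1 gene but not between genes. A probe for a viral gene gave 66 to 111 counts in these 6 mice, and genes near that level can hold background. Genes were called higher or lower where they changed 1.5-fold or more with an adjusted p under 0.05. The test was edgeR's quasi-likelihood test, adjusted by Benjamini-Hochberg across the panel. Its p-values measure only the spread between mice within groups, estimated from all 9 mice together. The rIL-12 mice differed more from each other than the vehicle mice did.

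With rIL-12, 108 of the 785 probes differed from vehicle (13.8%), of which 67 were higher (8.54%) and 41 lower (5.22%). Genes induced by interferon, MHC class II genes, proteasome subunits and cell cycle genes were found among the higher genes, and genes of T-cell receptor signaling, naive T-cell survival and homing, regulatory T-cells and B-cells among the lower ones. The 2 arms did not overlap in any mouse for 97 of the 108 genes, 62 higher and 35 lower, as for 241 of all 785 probes (30.7%). No single gene can reach a p under 0.1 in an exact two-sided permutation test of 3 mice against 3. Since RNA of the whole isolate was counted, fewer cells of a type and less RNA per cell cannot be told apart in any of these differences.

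**Figure D1:**
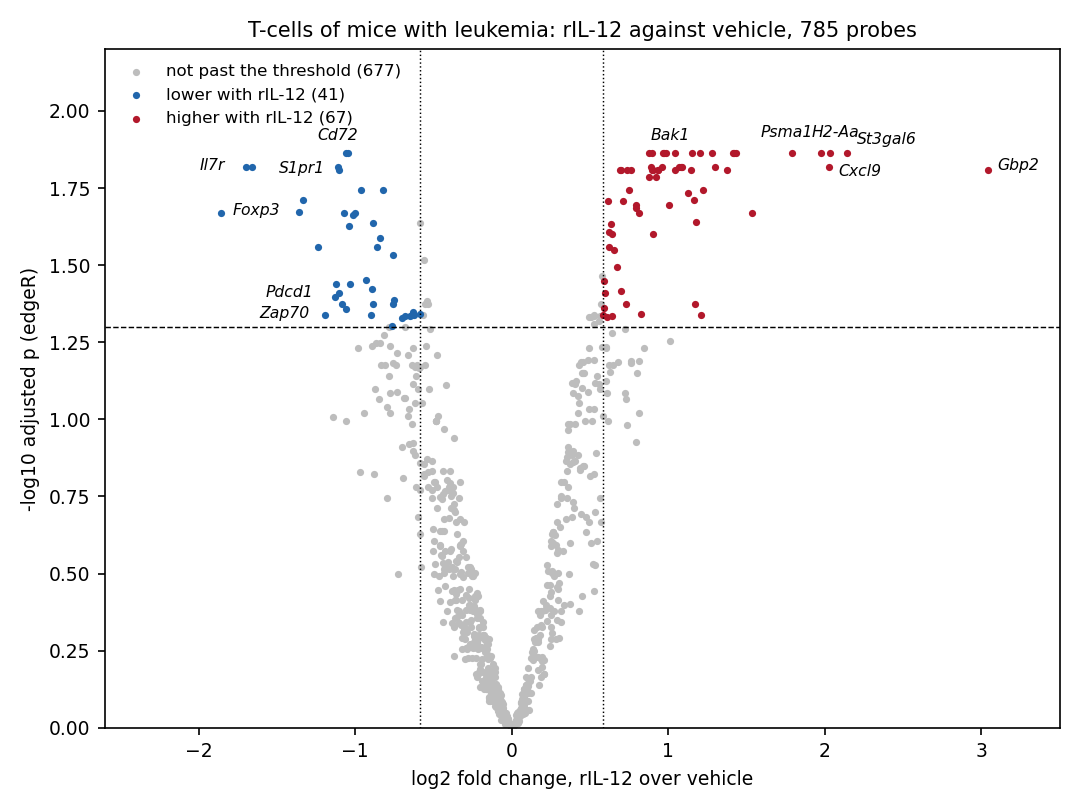
Each point is 1 of the 785 probes, with the log2 fold change of rIL-12 over vehicle on the x axis and −log10 of the adjusted p on the y axis. Dotted lines mark a 1.5-fold change and the dashed line an adjusted p of 0.05. The 67 higher genes reach a log2 fold change of 3.04 (Gbp2), and Il7r lies at −1.70 among the 41 lower genes.

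The split into higher and lower genes followed the scaling. Scaling by 11 housekeeping genes moved the median log2 fold change over the panel from −0.08 to −0.49 and gave 23 higher (2.93%) and 206 lower genes (26.2%), total count scaling gave 42 and 85, and median of ratios scaling gave 74 and 34. All 41 lower genes remained lower with housekeeping scaling, and 23 of the 67 higher genes remained higher, while the other 44 had a log2 fold change above 0 and did not pass. Below, a gene that passed in the same direction under all 4 scalings, as 23 higher and 34 lower genes did, is called stable to scaling. The calls also rested on single mice. No gene passed without vehicle mouse 2 or without rIL-12 mouse 2, where 167 and 109 genes changed 1.5-fold with an unadjusted edgeR p under 0.05 and DESeq2 called 88 and 55, and 4 genes (Bak1, Cd72, Hspa5 and Spib) passed without vehicle mouse 3. All 108 genes kept their direction with any 1 of the 9 mice left out.

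**Figure D2:**
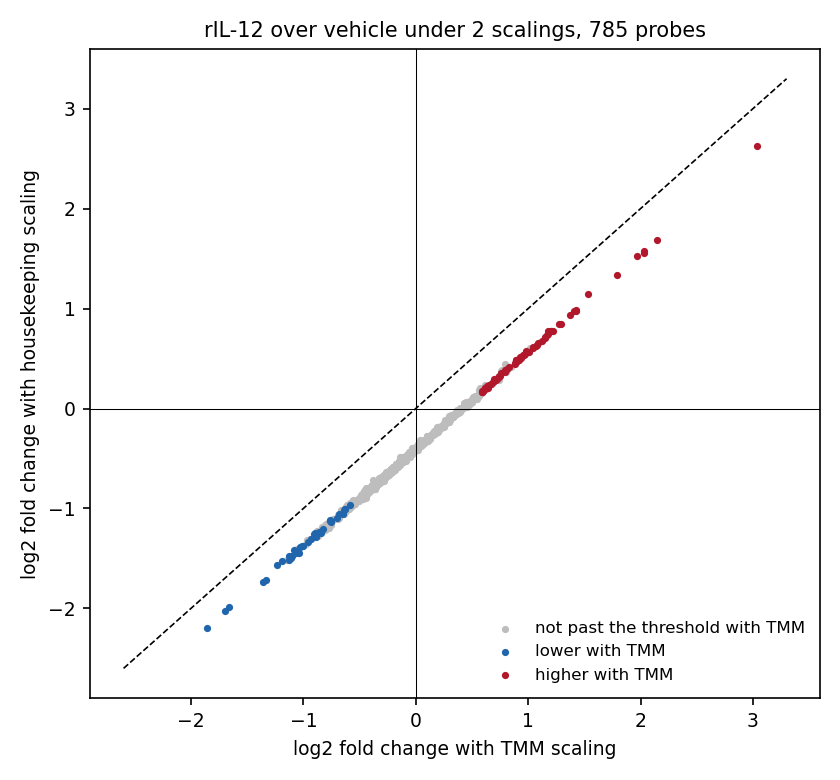
Each point is 1 probe, with its log2 fold change of rIL-12 over vehicle under TMM scaling on the x axis and under scaling by 11 housekeeping genes on the y axis, and the dashed line marks equal values. The points lie below that line, as the median moved from −0.08 to −0.49, and the order of the genes was nearly the same.

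At the start of the IL-12 pathway, the receptor chain gene Il12rb1 and the signal transducer Stat4 gave log2 fold changes of 0.04 (standard error 0.39) and 0.17 (0.23), neither passed, and both values were below 0 with housekeeping scaling (−0.32 and −0.25). Il12rb1 had 104, 251 and 137 normalized counts in vehicle mice 1 to 3 and 70.2, 181 and 261 in rIL-12 mice 1 to 3, so the arms overlapped. Of the 2 kinases of the receptor, Jak2 rose by a log2 fold change of 0.97 (standard error 0.20, adjusted p = 0.0137) and Tyk2 fell by 0.75 (0.22, adjusted p = 0.0411). Jak2 had 735, 633 and 623 normalized counts with vehicle and 1276, 1661 and 966 with rIL-12, and did not overlap. It was not called under housekeeping scaling (log2 fold change 0.55), whereas the fall of Tyk2 was stable to scaling.

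Ifng, the cytokine at the end of this pathway, had 132, 175 and 159 normalized counts with vehicle and 149, 488 and 304 with rIL-12. Mice 2 and 3 of the rIL-12 arm lay above all vehicle mice and mouse 1 lay among them. The log2 fold change was 1.01 with a standard error of 0.33 and an adjusted p of 0.0557, which misses the threshold. Ifng was called higher with DESeq2 (1.05), median of ratios scaling (1.04), a replicate block (0.90), and without rIL-12 mouse 1 (1.35) or mouse 3 (1.04). Tbx21, which encodes T-bet, did not pass either (log2 fold change −0.79, standard error 0.28, adjusted p = 0.0722), and was called lower with housekeeping scaling, total count scaling and without rIL-12 mouse 3.

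Genes downstream of interferon gave the largest change of the panel. Gbp2, a guanylate binding protein of cell-autonomous defense, had 229, 703 and 232 normalized counts with vehicle and 488, 6126 and 3056 with rIL-12. Mouse 2 and mouse 3 of the rIL-12 arm were far above every other mouse, and mouse 1 lay below the highest vehicle mouse. The mean rose from 388 ± 272 (SD, n = 3) to 3223 ± 2823 (SD, n = 3), a log2 fold change of 3.04 (standard error 0.68, adjusted p = 0.0155).

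Cxcl9, the chemokine that draws CXCR3+ T-cells, had 131, 249 and 145 normalized counts with vehicle and 426, 1374 and 362 with rIL-12, so all 3 treated mice were above all vehicle mice. It rose by a log2 fold change of 2.03 (standard error 0.44, adjusted p = 0.0151). Bst2, the membrane tether of budding virions known as tetherin, had 340, 455 and 348 normalized counts with vehicle and 727, 1354 and 697 with rIL-12, again without overlap (log2 fold change 1.28, standard error 0.25, adjusted p = 0.0137). Gbp2, Cxcl9 and Bst2 were stable to scaling. Among 19 interferon-inducible effectors on the panel 4 were higher, these 3 included, against 8.54% of all probes, and none was lower. The median log2 fold change was 0.33 beside −0.08 for all probes. The other 15 members did not pass. Of those 15, Oas1a, an antiviral synthetase, had the highest log2 fold change (0.60), Ifit3 the lowest (−0.70), and Cd274, which encodes PD-L1, gave 0.19 (standard error 0.28), and −0.18 with housekeeping scaling.

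The bases just before the transcription start of Gbp2 and Bst2 hold matches to known interferon response elements. The elements searched on both strands of the 250 bases before the start were the gamma-activated site (GAS, TTCNNNGAA) and the core of the interferon-stimulated response element (ISRE, GAAA, any 2 bases and GAAA), and capitals mark the matches in the last 150 of those bases (RefSeq, GRCm38.p6). In Bst2 the GAS and the pair of ISRE cores overlap in 1 run.
Gbp2, chr3:142620513-142620662, plus strand: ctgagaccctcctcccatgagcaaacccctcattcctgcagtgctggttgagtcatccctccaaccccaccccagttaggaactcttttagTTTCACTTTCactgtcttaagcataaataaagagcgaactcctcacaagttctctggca
Bst2, chr8:71537473-71537622, minus strand: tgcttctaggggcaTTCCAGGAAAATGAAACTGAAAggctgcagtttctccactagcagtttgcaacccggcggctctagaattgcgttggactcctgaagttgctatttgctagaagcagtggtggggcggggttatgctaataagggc
An ISRE core was held by 9 of the 15 interferon-inducible effectors with an entry in the promoter table (60.0%) and by 3.46% of all 27025 genes, and a GAS by 4 of the 15 (26.7%) and 8.13%. Of the 3 higher members with an entry, Gbp2 and Bst2 held an ISRE core and Bst2 a GAS, and Cxcl9 held neither. Members that did not pass the test also held these elements, and a match is a description of letters only.

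MHC class II genes, which present peptides to CD4+ T-cells, formed the list with the highest median log2 fold change, 0.98, and 5 of 8 members were higher against 8.54% of all probes. H2-Aa, the alpha chain of I-A, had 374, 491 and 436 normalized counts with vehicle and 1622, 3085 and 625 with rIL-12. H2-Ab1, its beta chain, had 227, 301 and 164 with vehicle and 828, 1470 and 443 with rIL-12. In both genes the 3 treated mice lay above the 3 vehicle mice, mouse 2 the highest and mouse 3 the closest to vehicle. The log2 fold change was 2.03 (standard error 0.40) for H2-Aa and 1.97 (0.35) for H2-Ab1, each with an adjusted p of 0.0137 and each stable to scaling.

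H2-Eb1, the beta chain of I-E, had 78.7, 119 and 78.5 normalized counts with vehicle and 180, 325 and 127 with rIL-12, a rise of 1.18 on the log2 scale (standard error 0.30), with vehicle values at the level of the viral probe. H2-DMb1 and H2-DMa, the chains of the chaperone that loads peptides onto class II, rose by log2 fold changes of 1.15 (standard error 0.26) and 0.76 (0.17), both without overlap. Of these 3 genes only H2-DMb1 was stable to scaling. Ciita, the class II transactivator, was measured near background at 23.2, 47.1 and 58.5 normalized counts with vehicle and 49.4, 103 and 69.3 with rIL-12 (log2 fold change 0.81, standard error 0.32, adjusted p = 0.0954). H2-Ob, a chain of the inhibitor of that chaperone, was the member with a value below 0 (−0.42) and did not pass.

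Class II promoters carry a Y box (ATTGG or its complement CCAAT), which was held by all 6 class II genes with an entry and by 37.5% of all genes in the 250 bases before the start. Its first base lay at −61 in H2-DMb1, −59 in H2-Eb1 and −48 in H2-Aa, counted back from the start. H2-DMa had 2 promoter entries, the first without a Y box and the second with its first base at −198. Capitals mark the Y box in the last 150 bases (RefSeq, GRCm38.p6). The letters searched for the X box core (AGNNACAG) were in 0 of these 6 genes and in 24.1% of all. Only these exact letters were searched, so the count cannot show whether these promoters carry an X box with other letters.
H2-Aa, chr17:34287824-34287973, minus strand: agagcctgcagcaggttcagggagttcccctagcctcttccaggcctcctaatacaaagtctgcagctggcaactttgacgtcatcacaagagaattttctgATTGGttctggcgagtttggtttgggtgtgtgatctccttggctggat
H2-Eb1, chr17:34305717-34305866, plus strand: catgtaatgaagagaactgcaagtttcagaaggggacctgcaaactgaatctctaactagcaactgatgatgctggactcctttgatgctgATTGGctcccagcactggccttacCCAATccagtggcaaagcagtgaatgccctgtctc
H2-DMb1, chr17:34153041-34153190, plus strand: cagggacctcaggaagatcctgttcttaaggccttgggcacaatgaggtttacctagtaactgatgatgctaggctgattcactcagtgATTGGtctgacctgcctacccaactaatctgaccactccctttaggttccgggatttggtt

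**Figure D3:**
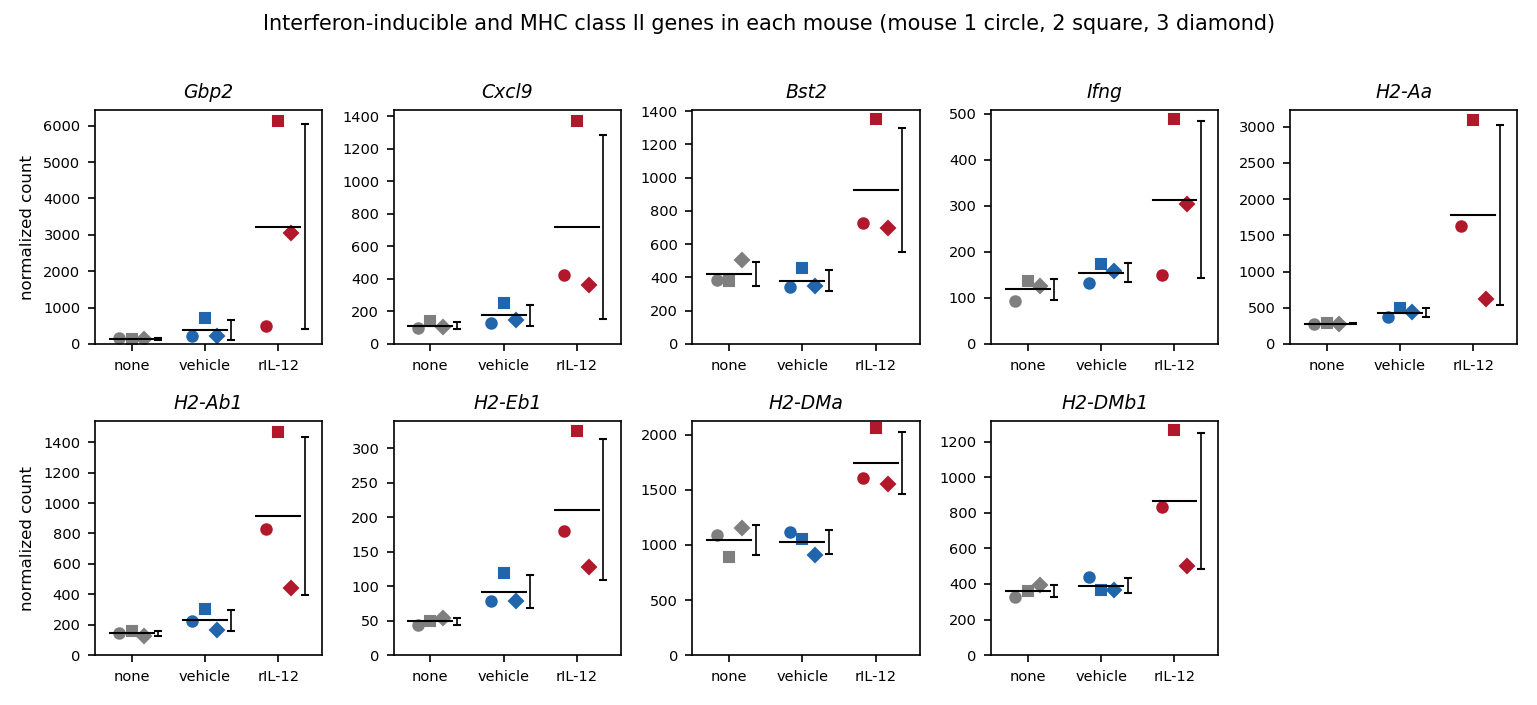
Normalized counts (y axis, linear and starting at 0) of 9 interferon-inducible and MHC class II genes in mice without leukemia (none), with leukemia and vehicle, and with leukemia and rIL-12. Each symbol is 1 mouse, the line the mean and the bar 1 SD of 3 mice. Gbp2 and Ifng were high in rIL-12 mice 2 and 3 and low in mouse 1, whereas H2-Aa, H2-Ab1 and H2-DMb1 were lowest in mouse 3.

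Antigen presenting cells express class II, and which cells of the isolate held the class II RNA was not measured, so their markers in the isolates were compared. Of 11 myeloid markers, none was higher and none lower, and their summed normalized counts were 6886 to 8405 with vehicle and 7030 to 9390 with rIL-12. Cd68, a lysosomal protein of macrophages, gave a log2 fold change of 0.62 (standard error 0.22, adjusted p = 0.0668), and Fcgr1, the high affinity Fc receptor, 0.84 (0.28, adjusted p = 0.0586) without overlap. Both were called higher with DESeq2, with a replicate block and without rIL-12 mouse 3, and Fcgr1 also without rIL-12 mouse 1. Fcgr4, another Fc receptor of myeloid cells, rose from 47.4, 60.9 and 70.2 to 72.8, 243 and 94.2 normalized counts (log2 fold change 1.21, standard error 0.37, adjusted p = 0.0459). Its counts before scaling were 47, 66 and 42 with vehicle and 84, 301 and 91 with rIL-12. Only rIL-12 mouse 2 was thus above the range of the viral probe (66 to 111). Fcgr4 was not called under housekeeping or total count scaling. Of 5 dendritic cell genes, Itgax, which encodes CD11c, fell at background level (−0.65) and none was higher. The 11 markers of B-cells and B-ALL summed to 2087 to 2433 with vehicle and 2070 to 2302 with rIL-12. The part of such cells in the class II difference was not tested.

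MHC class I presentation showed fewer changes, with 1 of 11 members higher (8.54% over all probes) and a median log2 fold change of 0.07. Psme2, a subunit of the interferon-inducible activator of the proteasome, had 2310, 2511 and 1826 normalized counts with vehicle and 3416, 5428 and 3565 with rIL-12 (log2 fold change 0.90, standard error 0.21, adjusted p = 0.0155). The heavy chains H2-K1 (0.53) and H2-D1 (0.07) did not pass.

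Proteasome subunits beyond Psme2 were among the genes that rose most. Psma1, an alpha subunit of the core particle, had 1039, 741 and 1145 normalized counts with vehicle and 3532, 5000 and 1576 with rIL-12, with no overlap (log2 fold change 1.79, standard error 0.34, adjusted p = 0.0137). Psma6, another alpha subunit, rose by 1.42 (0.28), Psmc6, an ATPase of the regulatory particle, by 1.30 (0.28), and Psmd6, a regulatory subunit, by 0.74 (0.17). The 7 proteasome genes of the panel formed a list drawn up after their values were seen. Of these, 5 were higher, against 8.54% of all probes, and none was lower. The median log2 fold change was 0.90 with TMM and 0.49 with housekeeping scaling. The interferon-inducible catalytic subunits Psmb9 (0.61) and Psmb10 (0.76) were the 2 that did not pass.

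Genes of ubiquitin and SUMO conjugation, likewise listed after their values were seen, had 7 of 17 members higher and 1 lower. Over all probes 8.54% were higher and 5.22% lower. Ubb, a ubiquitin gene and a housekeeping probe, had 8767, 8225 and 8168 normalized counts with vehicle and 19986, 21839.6 and 11667.5 with rIL-12 (log2 fold change 1.09, standard error 0.23). Cul2, the scaffold of an E3 ligase, rose with it (1.22), and both were stable to scaling. The ubiquitin ligase Cbl, which dampens receptor signaling, fell by 0.76 (0.23).

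Of the 11 housekeeping genes themselves, 4 passed as higher (Ubb, Sdha, Tbp and Abcf1), and with TMM the list had a median of 0.40 on the log2 scale. Scaling by these genes set that median to −0.01, and which of the scalings is centered on unchanged genes was not tested. Psma1, Psma6, Psmc6, Ubb and Cul2 passed under both.

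Cell cycle genes were higher in 6 of 12 cases, against 8.54% of all probes, and lower in none. The median of the list was 0.63 on the log2 scale (0.21 with housekeeping scaling). Ccnb1, the cyclin of entry into mitosis, had 885, 775 and 672 normalized counts with vehicle and 2249, 2787 and 1173 with rIL-12, a log2 fold change of 1.41 (standard error 0.25, adjusted p = 0.0137) without overlap. The replication helicase subunits Mcm5 and Mcm7 rose by 0.71 (0.17) and 0.69 (0.16), and Cdkn2c, an inhibitor of the kinases CDK4 and CDK6, rose by 1.12 (0.27) in the opposite role. Ccnb1 and Cdkn2c were stable to scaling, and the helicase subunits were not. The isolate can hold dividing cells of several types, and in which cells these genes rose was not tested.

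Some metabolic and proapoptotic genes rose. Hadhb and Acadl, enzymes of fatty acid oxidation, were higher by log2 fold changes of 0.94 (standard error 0.21) and 0.67 (0.19). They were 2 of 6 genes of that list, against 8.54% of all probes. Neither was called under housekeeping scaling (0.51 and 0.25). The median log2 fold change of the list was 0.005, and 3 of its members were below 0. None of 4 glycolysis genes passed. Among 15 apoptosis genes, the proapoptotic Diablo (1.04), Bak1 (0.98) and Bid (0.80) rose and the antiapoptotic Bcl2 fell (−0.89). Bak1 had 1130, 1132 and 984 normalized counts with vehicle and 1893, 2530 and 2007 with rIL-12, among the tightest differences of the panel (standard error 0.15). Hspa5, an endoplasmic reticulum chaperone named after its values were seen, behaved likewise, with 3163, 3495 and 3877 against 5516, 7811 and 6256. Neither Bak1 nor Hspa5 was called under housekeeping scaling.

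The other genes with large rises had separate roles. St3gal6, a sialyltransferase, had 101, 102 and 75.2 normalized counts with vehicle and 409, 710 and 130 with rIL-12 (log2 fold change 2.14, standard error 0.44, adjusted p = 0.0137). Lamtor3, a subunit of the lysosomal platform of mTORC1, rose by 1.43 (0.27), and Klrk1, which encodes the activating receptor NKG2D of NK cells and CD8+ T-cells, by 1.37 (0.31). Klrk1 had 246, 248 and 239 normalized counts with vehicle and 464, 1065 and 373 with rIL-12, so the treated mice were all higher and far more spread. The other 4 killer receptor genes did not pass, among them Ncr1 (−0.09) and Klrd1 (−0.80). Of 19 chemokines and chemokine receptors 2 were higher, Cxcl9 included, and none was lower, against 8.54% and 5.22% of all probes.

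Cytotoxic effector genes moved in no common direction, with 1 of 12 higher and 2 lower, against 8.54% and 5.22% of all probes. Gzmb, a granzyme, had 83.8, 137 and 91.9 normalized counts with vehicle and 59.8, 55.6 and 59.0 with rIL-12, a fall of 0.84 on the log2 scale (standard error 0.22, adjusted p = 0.0259) that brought it to the level of the viral probe or below. Ctsw, a cathepsin of cytotoxic cells, fell by 0.90 (0.28), and Lamp1, a membrane protein of lysosomes and lytic granules, rose by 0.70 (0.20). Prf1, which encodes perforin, did not pass (log2 fold change −0.47, standard error 0.19, adjusted p = 0.0972), nor did Gzma (0.02, standard error 0.33, and −0.37 with housekeeping scaling). Prf1 was called lower with housekeeping and total count scaling.

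Among the lower genes, those of naive and memory T-cells included Il7r. Il7r, the receptor chain for the survival cytokine IL-7, had 1286, 1057 and 683 normalized counts with vehicle and 231, 184 and 521 with rIL-12. All treated mice were below all vehicle mice, and mouse 3 was the closest to them. Il7r fell by a log2 fold change of 1.70 (standard error 0.37, adjusted p = 0.0151), from 1009 ± 304 (SD, n = 3) to 312 ± 183 (SD, n = 3). S1pr1, the receptor by which T-cells leave tissue, had 411, 293 and 271 with vehicle and 143, 127 and 182 with rIL-12 (fall of 1.11, standard error 0.24). With Bcl2, 3 of 9 genes of that list were lower and none was higher, against 5.22% and 8.54% of all probes. Ccr7, the lymph node homing receptor, gave −1.06 and did not pass.

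Proximal T-cell receptor signaling had 9 of 21 members lower and none higher, against 5.22% lower over all probes, with a median log2 fold change of −0.49. Zap70, the kinase recruited to the receptor, had 538, 753 and 488 normalized counts with vehicle and 124, 201 and 457 with rIL-12, with no overlap though mouse 3 came close to the lowest vehicle mouse (log2 fold change −1.19, standard error 0.36, adjusted p = 0.0459). Lck, the kinase that acts before it, had 996, 919 and 658 with vehicle and 355, 491 and 574 with rIL-12, a fall of 0.86 (standard error 0.23, adjusted p = 0.0276). The adaptor Grap2 (−1.13) and the phospholipase Plcg1 (−0.63) fell as well, and so did Dgka (−1.03) and Dgkz (−0.59), kinases that restrain this signaling. Ppp3cc and Pik3cd were also among the 9, and Zap70, Grap2, Dgka and Lck were stable to scaling.

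The genes of T-cell identity lay in the same direction. Cd3d, Cd3e and Cd3g, which define T-cells, were counted above the viral probe's highest value in all 6 mice. None of the 7 passed with TMM, all 7 had log2 fold changes below 0 with a median of −0.61, and all 7 were called lower with housekeeping scaling. Their summed normalized counts were 3179, 3182 and 2333 in vehicle mice 1 to 3 and 1279, 1765 and 2403 in rIL-12 mice 1 to 3, so 2 treated mice were below all vehicle mice and mouse 3 was among them. Cd3e, a chain of the CD3 complex, had 433, 296 and 311 with vehicle and 146, 210 and 328 with rIL-12 (log2 fold change −0.61, standard error 0.29, adjusted p = 0.166). The coreceptors Cd4 (−0.85) and Cd8a (−0.88) did not pass. Of 14 probes named for T-cell receptor genes, 3 were lower, against 5.22% of all probes. None was higher, and 12 had a log2 fold change below 0. The part of a lower share of T-cells in the falls of Il7r, Zap70, Lck and the genes below was not tested.

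**Figure D4:**
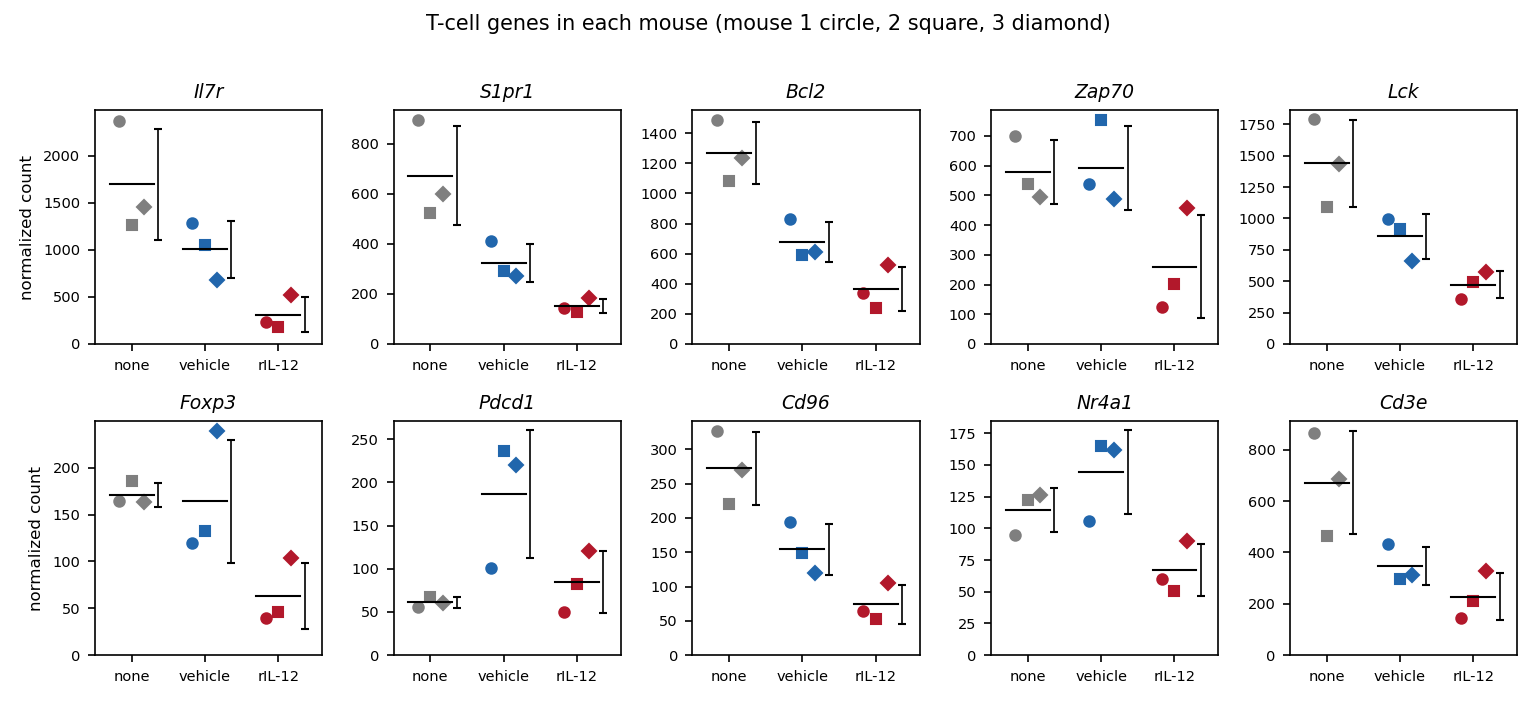
Normalized counts (y axis, linear and starting at 0) of 10 T-cell genes in mice without leukemia (none), with vehicle and with rIL-12, each symbol 1 mouse, the line the mean and the bar 1 SD of 3 mice. The first 9 genes were called lower with rIL-12 and Cd3e was not, and rIL-12 mouse 3 was the treated mouse closest to the vehicle arm in each.

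Foxp3, the transcription factor of regulatory T-cells, had 120, 133 and 239 normalized counts with vehicle and 39.9, 45.9 and 104 with rIL-12. The arms did not overlap, and rIL-12 mouse 3 came close to vehicle mouse 1. Counts before scaling with rIL-12 were 46, 57 and 100, beside 96, 105 and 87 for the viral probe, so background can hold part of them. The log2 fold change was −1.36 (standard error 0.34, adjusted p = 0.0213) and stable to scaling, and it was the largest fall of a transcription factor on the lists. Nt5e, which encodes the ectoenzyme CD73, fell by 0.88 (0.26) at or below background. These 2 of 7 regulatory T-cell genes were lower, against 5.22% of all probes. The other 5 did not pass, and Il2ra, the high affinity chain of the IL-2 receptor, gave a value above 0 (0.81).

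Of 13 coinhibitory receptors 2 were lower and none was higher, against 5.22% and 8.54% of all probes. Pdcd1, which encodes PD-1, had 101, 236 and 221 normalized counts with vehicle and 50.2, 82.2 and 121 with rIL-12, and rIL-12 mouse 3 lay above vehicle mouse 1 (log2 fold change −1.13, standard error 0.33, adjusted p = 0.0400). Cd96, a receptor of the nectin family's ligands, had 194, 149 and 120 with vehicle and 64.1, 52.4 and 106 with rIL-12 (−1.07, standard error 0.27, adjusted p = 0.0214) with no overlap. Before scaling, the counts with rIL-12 were 58, 102 and 117 for Pdcd1 and 74, 65 and 102 for Cd96. These lay near those of the viral probe (96, 105 and 87). Havcr2, which encodes TIM-3, gave 0.10 (standard error 0.25), and −0.31 with housekeeping scaling. The costimulatory receptor Tnfrsf9, also called 4-1BB, was the 1 lower gene of 11 in its list (−1.04, standard error 0.27), and no ligand of the 15 checkpoint and costimulatory ligands passed.

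Of 18 effector and exhaustion transcription factors, 1 was lower and 1 higher. Of 7 genes on a list of AP-1 and other activation factors, 1 was lower and none was higher. Over all probes 5.22% were lower and 8.54% higher. Nr4a1, an orphan nuclear receptor induced early after antigen contact, had 106, 165 and 162 normalized counts with vehicle and 59.8, 50.8 and 90.0 with rIL-12 (log2 fold change −1.11, standard error 0.25, adjusted p = 0.0155). Its counts before scaling with rIL-12 (69, 63 and 87) were at or below those of the viral probe. Junb, a subunit of AP-1, fell by 0.83 (0.20). Nfatc3, a calcium-dependent factor, rose by 1.17 (0.28) from 227, 158 and 165 to 507, 489 and 243. All 3 genes had arms that did not overlap and were stable to scaling.

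In the JAK, STAT and SOCS family, Stat3 rose with Jak2, by 0.89 (standard error 0.19), and the cytokine-induced inhibitor Socs2 fell with Tyk2. Socs2 had 84.8, 190 and 196 normalized counts with vehicle and 54.6, 41.1 and 90.0 with rIL-12 (log2 fold change −1.33, standard error 0.32, adjusted p = 0.0194), and rIL-12 mouse 3 lay above vehicle mouse 1. Its counts before scaling with rIL-12 (63, 51 and 87) were at or below those of the viral probe. Of 41 interleukin and interleukin receptor genes, Il7r and Il1r1 (−0.63), a receptor chain for IL-1, were lower and Il1rl1 (0.59), the receptor for IL-33, was higher. For 21 of these 41 genes the mean count was at or below that of the viral probe in both arms.

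Of 11 genes of B-cells and B-ALL 3 were lower and none was higher, against 5.22% and 8.54% of all probes. Spib (−1.05), a transcription factor of B-cells, and Rag1 (−1.10), a subunit of the V(D)J recombinase, were among the lower genes, Rag1 at background. Counts of Spib before scaling were 105, 129 and 60 with vehicle and 63, 54 and 57 with rIL-12. In the rIL-12 mice these were below the viral probe (96, 105 and 87). The other 8 did not pass, among them Cd79b (0.50), Cd22 (−0.33) and Ms4a1 (0.04). Cd72, a B-cell coreceptor named after its values were seen, fell by 1.06 (0.18) with no overlap.

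**Figure D5:**
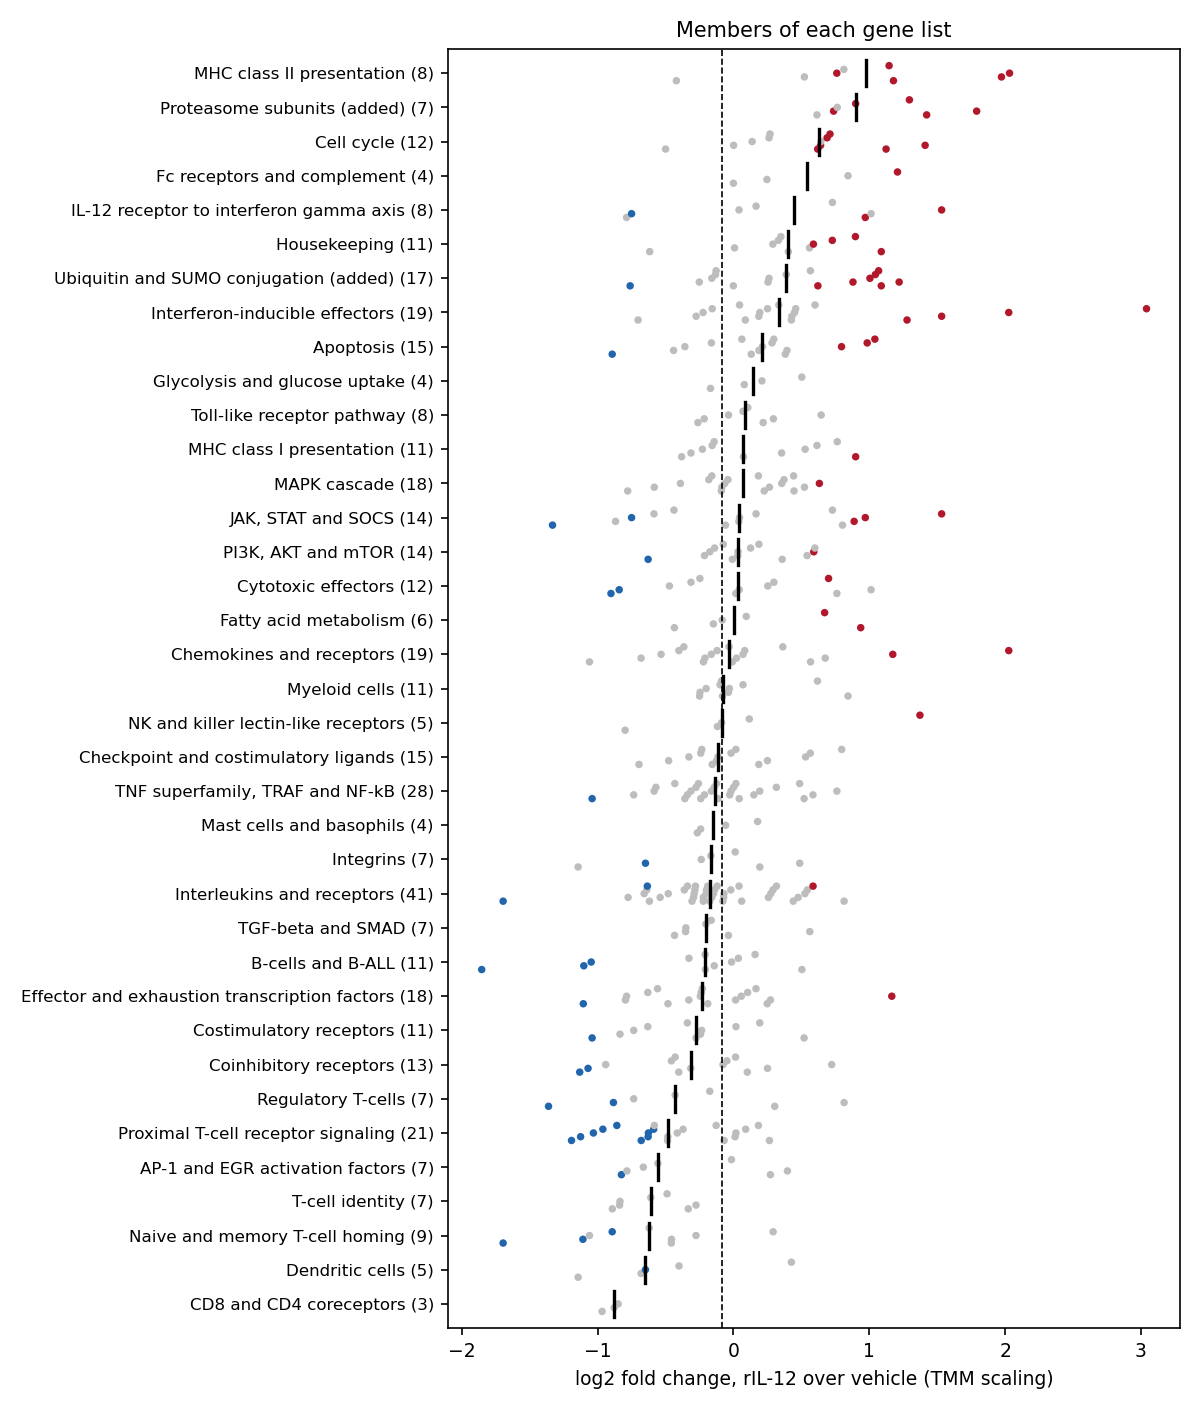
Log2 fold change of rIL-12 over vehicle (x axis, TMM scaling) for each member of each gene list (y axis, number of genes measured in parentheses), with higher genes in red, lower genes in blue and the others in gray. The short line is the median of the list and the dashed line the median of all probes, −0.08. MHC class II (0.98) and the proteasome subunits (0.90) lie at the top, and the coreceptors (−0.88) at the bottom.

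The size of the differences varied between the 3 treated mice. Of the 67 higher genes, rIL-12 mouse 2 was the highest of the 3 in 59 and mouse 3 the lowest in 59, and of the 41 lower genes mouse 3 was the highest in 38. In the other 8 higher genes mouse 1 was the lowest, among them Gbp2, Stat3, Fcgr4, Psme2, Bak1 and Hspa5. Mouse 3 thus lay closest to the vehicle arm for most called genes and mouse 1 for these 8. The total count of mouse 3 was also the lowest of the 3 treated mice (500764), and its summed T-cell identity genes were the highest (2403), and their part in the order of mice was not tested.

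Mice without leukemia give a reference for these levels. The genes counted here were picked by their difference between the arms. The same counts were not made over all probes, so they describe these genes only. Of the 67 higher genes, 42 were above every mouse without leukemia in all 3 treated mice, among them H2-Aa, H2-Ab1, H2-Eb1, Cxcl9 and Bst2. Of the 41 lower genes, 29 were below every mouse without leukemia in all 3 treated mice, among them Il7r, S1pr1, Bcl2, Lck and Cd96. For 23 of the 41, the mean without leukemia was itself above the mean with vehicle, as for Il7r (1263 to 2375 normalized counts) and Lck (1093 to 1792). Pdcd1 differed, with 55.2 to 67.8 normalized counts without leukemia, within the range of the treated mice. Its counts before scaling without leukemia (52, 67 and 63) were below those of the viral probe (53, 114 and 95). Background can therefore hold part of this reference level.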

How the data were processed

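The authors deposited whole-number nCounter barcode counts for 785 probes in 9 mice (3 per group). The nSolver normalization of the methods is not in these values, and no control probes were in the table. Probes were matched to symbols through RefSeq transcript names (751 matched, 34 without a symbol). After TMM scaling, edgeR 4.0.16 (R 4.3.3) was run as a quasi-likelihood test with all 9 mice in 3 groups, no covariate and a prior count of 1. Genes were called at 1.5-fold or more and a p under 0.05 after Benjamini-Hochberg adjustment over the panel. In simulated data of this comparison with 785 probes, 100 of 100 genes changed 4-fold and 84 of 100 changed 2-fold were recovered, and 5 unchanged genes were called. The simulation gave all groups the same spread. Real rIL-12 mice differed more (chi-square per degree of freedom 38.6 to 60.0) than vehicle mice (9.72 to 12.9), so these shares may not hold for them.

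Named genes were a set of IL-12, interferon, cytotoxic and checkpoint genes, up to 12 genes per direction with the largest change and no overlap, and up to 3 called genes per list (some genes are not reported here), with others only where a count needed them or as stated. The comparison, the 35 functional lists and the rule were chosen with earlier results of these data known. Replicate mice differed beyond counting error (chi-square per degree of freedom 5.55 to 60.0). Alternatives were other scalings, filters, prior counts, DESeq2 1.42.0, the methods' t-test, 2 groups only, a replicate block, and leaving out each mouse.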

Additional observations from a re-analysis of the deposited data

How the results depend on the processing

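The 108 called genes (67 higher, 41 lower) became 27 (22 higher, 5 lower) in a model of the 2 arms only, 229 (23 and 206) with housekeeping scaling and 127 (42 and 85) with total count scaling. The methods' t-test called 0 after adjustment and 76 (43 and 33) at an unadjusted p under 0.05, while edgeR gave 175 unadjusted and DESeq2 called 136. With 1 mouse left out, the counts ranged from 0 to 199 in all, 0 to 111 higher and 0 to 88 lower. They were 0 without vehicle mouse 2 or rIL-12 mouse 2 (smallest adjusted p 0.0529 and 0.0560), 4 without vehicle mouse 3 and 62 without rIL-12 mouse 1, and DESeq2 called 55 to 208 in the same settings. Filters on low counts and prior counts kept the total between 105 and 109.

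With the mouse number as a replicate block, 98 genes were called (67 higher, 31 lower), of which 88 were among the 108. The labels tie the numbers to no litter or batch. Deviations of same-numbered mice of the 2 arms correlated at 0.33, 0.13 and 0.02, and rIL-12 mouse 3 correlated best with vehicle mouse 2, so the numbers were not taken as pairs.

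None of the 61 called genes among the 89 named ones changed sign under these alternatives. Of those not called, Il12rb1, Stat4, Cd274, Havcr2, Gzma, Slc2a3 and Tlr7 turned from above to below 0 with housekeeping scaling, and Il12rb1, Stat4, Havcr2 and Gzma also with total count scaling. Depth limits genes near the viral probe: 252 of the 785 probe means over the 9 mice were no higher than its mean. In both leukemia arms, the means of 5 called genes were no higher than the viral probe's mean in the 6 mice. These were Rag1, Nt5e, Itgax and 2 T-cell receptor probes.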
